A study of Drosophila melanogaster with 4 samples.

Results

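Binding of the nuclear receptor Ultraspiracle (USP) was mapped over the vri (vrille) locus of Drosophila melanogaster in embryos of 0 to 12 h. The locus was taken as the window 2L:5285000-5312000 of FlyBase release 5, 27 kb long, and every peak of the deposited list that overlapped it was included. There were 9 such peaks, among 303 on arm 2L, 1397 on the 6 major arms and 1540 in the whole list. The window was selected on the peak positions and scores of this same list, so the values below describe the locus and none of them was tested. That the window holds vri was taken as given with its coordinates, since no release 5 annotation was used here to check it.

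The ChIP libraries, 2 in number, came from the strain USP-GFP, with the genotype PBac{y[+]-attP-3B}VK00033, in which the genomic coding region of USP was present as a transgene. Chromatin was precipitated with a rabbit polyclonal antibody against green fluorescent protein (GFP), so the tagged transgene product was pulled down. The 2 Input libraries were chromatin DNA of the same strain and stage. Fixation was in 1.8% formaldehyde for 15 min for every library. Per the labels, flies of a y; bw cn sp stock were used in the collection step, whereas the samples themselves are named USP-GFP, and whether the strain also kept an untagged usp gene is not stated there. The embryos were whole and unsorted, so a peak cannot be assigned to a tissue or to an hour within the collection.

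USP is the fly homologue of the vertebrate retinoid X receptors. It pairs with the ecdysone receptor EcR, and the dimer binds response elements in DNA and switches target genes in response to the steroid hormone ecdysone. The gene vri (locus tag Dmel_CG14029) encodes a transcription factor with a basic leucine zipper. It is best known from the circadian clock, where the CLOCK and CYCLE activators turn it on and its product represses Clk, and it is also required in embryonic development, where it interacts genetically with the dpp signalling pathway. In the Release 6 gene table, 1 non-coding gene, lncRNA:CR45730, lay inside vri. The nearest protein-coding genes before vri in that table were Nin, whose product is a centrosomal protein, and Bub1, a kinase of the spindle checkpoint, and those after it were CG14024 and the coactivator gene Ncoa6. Release 6 is another build than that of the peaks, so no distance between a peak and a gene start, exon or intron is given.

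The 9 peaks fell into a high and a low set. The highest-scoring peak, the seventh from the left, lay at 2L:5297156-5301735 where it reached a score of 92.57 over a width of 4580 bp. To its left the second peak, at 2L:5292124-5293879, had a score of 54.3 and a width of 1756 bp, and at the right end the ninth peak, at 2L:5306084-5307391, had a score of 53.11 and a width of 1308 bp. These 3 peaks stood clear of the others, since the next score was 19.07. The score is the authors' own value per peak and has meaning only within this list.

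At the left end of the group the first peak, at 2L:5290923-5291740, had a score of 15.09 and a width of 818 bp. Between the second and the seventh peak lay a row of 4 smaller ones. The third, at 2L:5294263-5294895, had a score of 19.07 and a width of 633 bp. The fourth, at 2L:5295281-5295602, had a score of 12.16 and was 322 bp wide. Scores declined along this row towards the highest peak. The fifth, at 2L:5295840-5296373, had a score of 12.15 and a width of 534 bp, and the sixth, at 2L:5296436-5296916, had a score of 9.19, the lowest at the locus, and a width of 481 bp. To the right of the highest peak there was a single small one, the eighth, at 2L:5304637-5304848, scoring 10.75 over 212 bp, the narrowest at the locus.

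**Figure D1:**
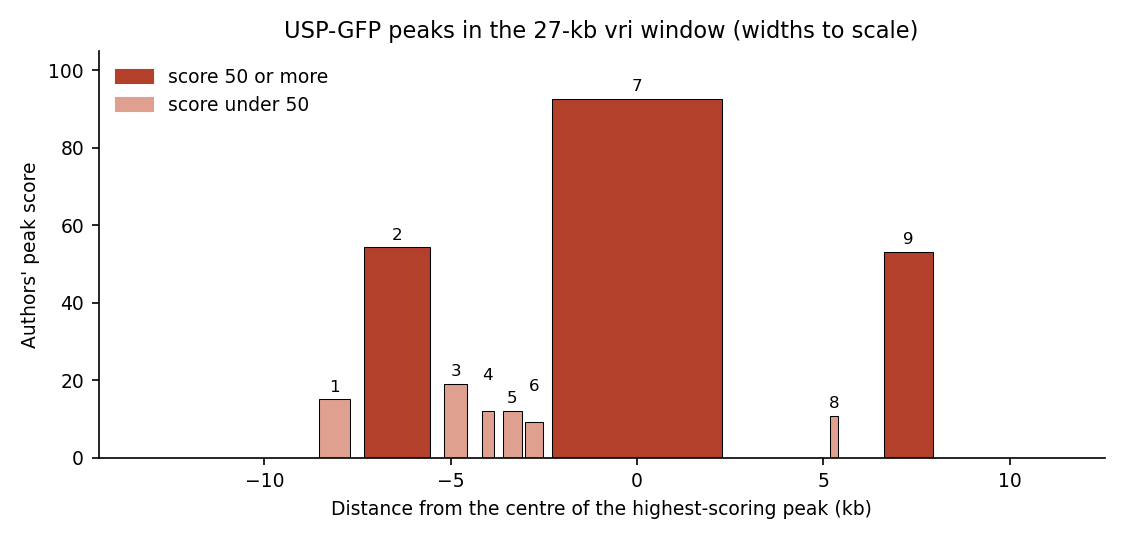
Peaks of USP-GFP in the vri window, with the distance from the centre of the highest-scoring peak in kb on the x axis and the authors' peak score on the y axis. Each bar is 1 peak, numbered from the left, with its width to scale; 3 peaks have scores of 53.11 to 92.57 (dark) and the other 6 have scores of 9.19 to 19.07 (light).

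Within the arms, the 3 strong peaks ranked within the first 92 by score and the 6 others ranked far lower. The seventh peak ranked 39 by score and 10 by width among the 1397 arm peaks, and 9 by score and 5 by width on 2L. The second and ninth peaks ranked 88 and 92 by score on the arms. A bound of 50 was set with the scores in view; 3 of the 9 peaks (33.3%) reached it, where 6.87% of all arm peaks did. The same 3 were at least 1 kb wide, where 14.1% of arm peaks were. The upper quartile of the arm scores, 19.48, was also reached by 3 of 9, against 25.1% of arm peaks, and the third peak lay just under it. The 6 others ranked between 364 and 1167 by score. Their median score was 12.2, against 12.9 for all arm peaks, and their median width was 508 bp, against 386 bp. Over all 9 the median score was 15.1 and the median width 633 bp.

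The locus was covered mainly by its strong peaks. Peaks occupied 10.6 kb of the window, or 39.4%, and the seventh peak alone made up 43.0% of these bases. The 3 strong peaks together held 71.8%. From the first base of the first peak to the last base of the ninth the group spanned 16.5 kb, of which 64.6% lay in peaks. Among the 61 arm regions with 5 or more peaks, formed by linking centres under 20 kb apart, 4 were covered to this share or more, vri included, and the median region was covered to 22.96%. The share held by the widest peak was matched or passed in 12 of these 61 regions, again with vri counted, and had a median of 32.7%.

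Spacing was tight on the left of the highest peak and wide on its right. The 8 gaps between neighbouring peaks ran from 62 to 2901 bp, with a median of 383 bp, and 6 of them were 500 bp or less. On the arms 24.3% of the gaps between neighbours were that short, and the median gap was 11.2 kb. From left to right the first 3 gaps measured 383, 383 and 385 bp. The next 3 measured 237, 62 and 239 bp. These 6 gaps joined the first 7 peaks into 1 nearly continuous stretch. The seventh gap, after the highest peak, was 2901 bp and the eighth was 1235 bp. Centres of neighbouring peaks were 570 to 5297 bp apart. In all, 7 of the 9 peaks had another within 500 bp, against 39.2% of arm peaks. The window was selected on its peaks, so short gaps go with the selection. The regions on X and 3L with 9 peaks, described below, had 5 and 3 gaps of 500 bp or less, where vri had 6.

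Merging the peaks that lay within 500 bp of each other gave 3 intervals at the locus. The first, from 5290923 to 5301735, was 10.8 kb long and contained 7 peaks, and 84.4% of it lay in peaks as deposited. Of the 1059 arm intervals made in this way it was the eighth longest, and on 2L it ranked 2. The eighth and ninth peaks remained single. Whether the 7 peaks were separate binding sites or parts of 1 broad enriched stretch cannot be told from a list of intervals without summits or read coverage.

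Relative to their scores, some peaks of the locus were wide and others lay near or under the arm line. Widths were set against a straight line through the logarithms of score and width of all arm peaks, and 6 of the 9 lay above it, where 45.3% of arm peaks did. The seventh peak was 2.08 times as wide as the line at its score, which placed it above 95.3% of arm peaks on this measure. The first peak was 1.83 times, the sixth peak 1.67 times and the peak before it 1.45 times as wide. At the other end, the eighth peak was 0.641 times as wide as the line. Against the median width of the 100 arm peaks nearest in score, 6 peaks were again wider, of which 5 were shared with those above the line. By that measure the third peak was narrower, at 633 bp against 643 bp, and the ninth was wider, at 1308 bp against 1115 bp. Of the 7 peaks with another within 500 bp, 6 lay above the line and 5 were wider than that median. Over the arms 46.8% of the peaks with another within 500 bp lay above the line, against 44.4% of the rest.

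**Figure D2:**
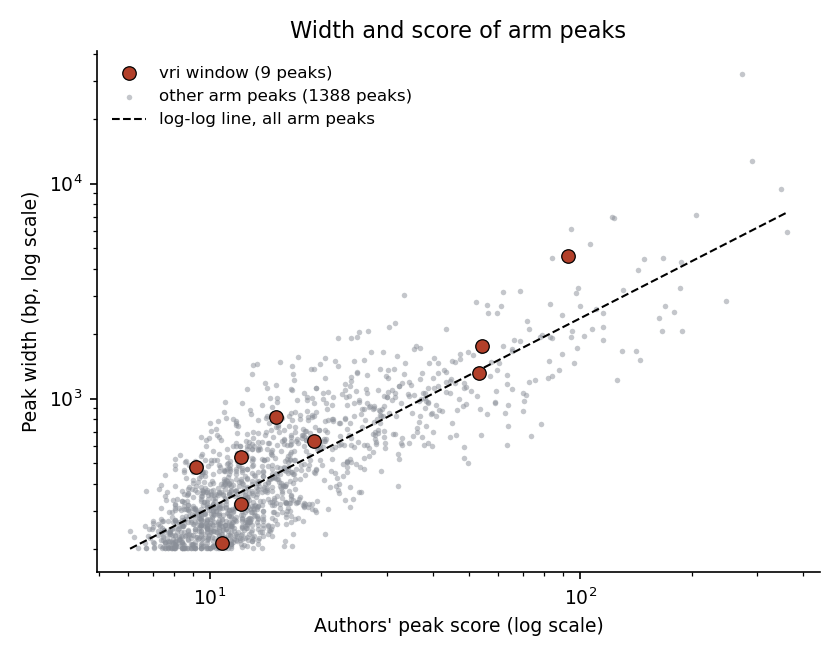
Score (x axis, log scale) and width in bp (y axis, log scale) of the 9 peaks in the vri window (red) and of the 1388 other arm peaks (grey), with the line fitted through all arm peaks. Of the vri peaks 6 lie above the line, with the highest-scoring one 2.08 times as wide as the line at its score.

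The gap on the left of the group was of common length for the arms and that on its right was longer. The nearest peak on the left, at 2L:5256067-5256490 with a score of 14.46, ended 34.4 kb before the first peak of the group, and 39.0% of the gaps between neighbouring arm peaks were at least as long. On the right the next peak lay 239 kb beyond the ninth, at 2L:5546686-5547769, scoring 59.03 over 1084 bp, and 11.9% of arm gaps were at least as long. Neither adjacent window of the same length held a peak, and 8 consecutive windows to the right were empty. Empty windows were common, with 83.1% of all arm windows of this length holding none. Of the 13 arm regions with 9 or more peaks, linked under 20 kb, 12 had gaps longer than the window on both sides, vri among them. The limits of the window did not decide its membership, since the outermost members lay 5.92 and 4.61 kb inside its edges and the nearest other peaks 28.5 and 235 kb outside them.

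Set against every window of the same length on the 6 arms, the vri window stood near the top in number of peaks and in covered bases. Windows were moved in steps of 1 kb between the first and last peak of each arm, which gave 116790 of them. A count of 9 or more was reached by 342 windows, 0.293%, and the mean over all windows was 0.327 peaks. As many covered bases were found in 216 windows, 0.185%, where the mean was 206 bp. A highest score of 92.57 or more was found in 982 windows, 0.841%. It was less rare among the 61 arm regions with 5 or more peaks, where 16, vri included, had such a score. Windows that share most of their bases are not independent, so these shares rank the locus and are no p-values.

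Among windows picked so that none overlapped another, 12 held more peaks than vri and 2 others held 9 as well. Some of these windows lay side by side in 1 group of peaks. With arm peaks linked into regions where centres were under 20 kb apart, 10 of 617 regions held more peaks than vri and 3, vri included, held 9. In covered bases 8 windows were above it, and in highest score 29 were. On 2L itself, 4 such windows held more peaks and 2 held more covered bases. The 5 windows with the most peaks lay at 3L:17987000-18014000 (20 peaks), 2L:21452000-21479000 (16 peaks), 2L:21414000-21441000 (15 peaks), 2L:19137000-19164000 (14 peaks) and 2L:21497000-21524000 (14 peaks). In 3 of these 5, all in 1 linked region of 59 peaks on 2L, no peak reached a score of 50, and each had fewer covered bases than vri, at 7.37 to 8.72 kb. The 5 with the most covered bases lay at 3L:17956000-17983000 (100% covered), 3L:5602000-5629000 (23.6 kb), 3L:17984000-18011000 (22.0 kb), 2L:6066000-6093000 (17.8 kb) and X:1835000-1862000 (17.2 kb). Outside vri, 5 windows without overlap matched or exceeded it in both number and covered bases.

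**Figure D3:**
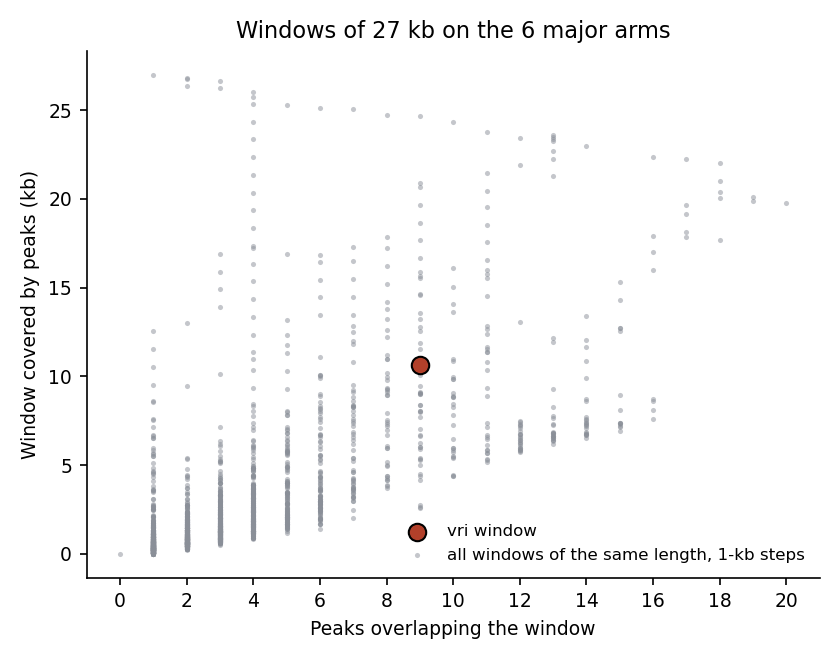
Number of peaks (x axis) and kb covered by peaks (y axis) in every 27-kb window of the 6 major arms, in steps of 1 kb; each grey point is 1 combination of values, and the red point is the vri window with 9 peaks and 10.6 kb. The grey points reach up to 20 peaks, and up to full coverage in windows inside the widest peak of 3L.

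The 2 other regions with 9 peaks differed from vri in the scores and widths of those peaks. At vri the scores ran from 9.19 to 92.57 and 10.6 kb were covered. On X, where the peaks ran from 3570757 to 3590946, the scores were 10.6 to 65.4 with a median of 12.6, and 6.27 kb were covered. On 3L, where they ran from 10842882 to 10854184, the scores were 7.69 to 13.86 with a median of 10.2, and 2.78 kb were covered. The widest peak was 4580 bp at vri, 1664 bp on X and 500 bp on 3L. Peaks of score 50 or more numbered 3 at vri, 1 on X and 0 on 3L. That bound was set with the scores in view, and it fell between 19.07 and 53.11 at vri. At the arm upper quartile of 19.48, vri was not ahead of X. Scores of 21.35, 35.47 and 37.64 on X also passed it, and no further peak at vri did. The span of the 9 peaks was longest on X, at 20.2 kb, against 16.5 kb for vri and 11.3 kb for 3L. Over the 61 arm regions of 5 or more peaks, 7 had 3 or more of score 50 or above, vri included. Both the bound and the number 3 follow the vri peaks, so vri meets them by construction.

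**Figure D4:**
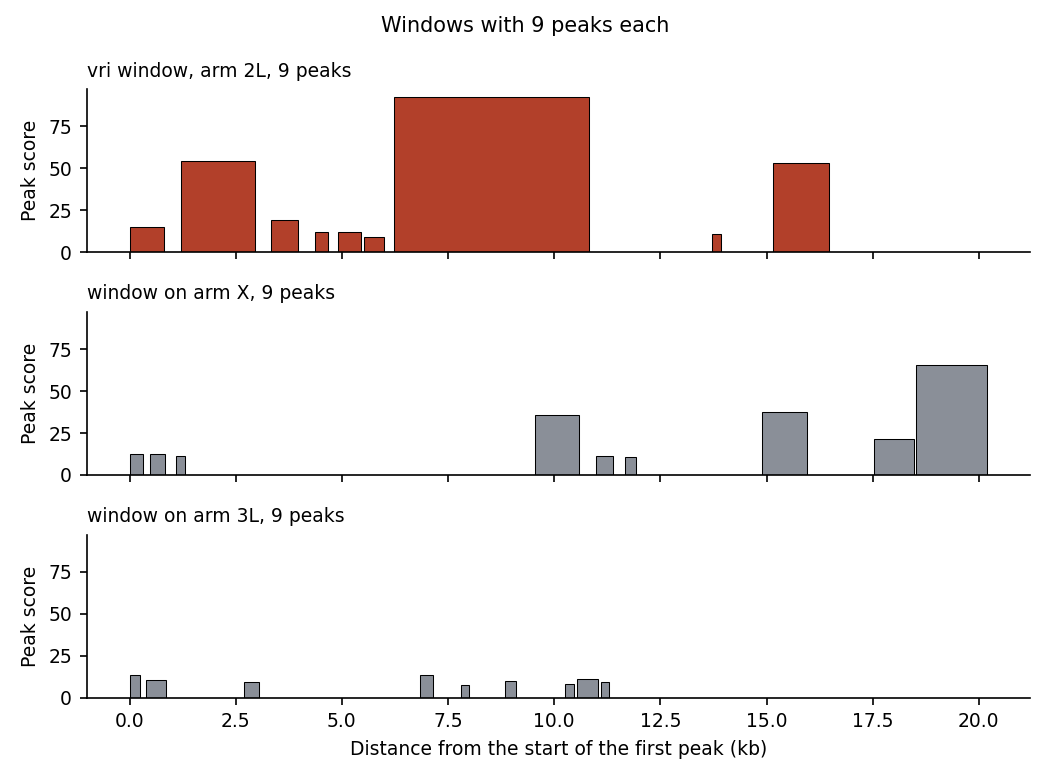
Peaks of the vri window (top, red) and of the 2 other regions with 9 peaks, on X and 3L (grey), with the distance from the start of the first peak in kb on the x axis and the authors' peak score on the y axis. Bar widths are to scale; the highest scores are 92.57 at vri, 65.4 on X and 13.86 on 3L.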

How the data were processed

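Per the file headers and columns, the deposited file was 1 list of peaks called with MACS on FlyBase release 5, giving the first and last base and the authors' score of each peak. Per the submitters' processing notes, CASAVA 1.7.0.2 and 1.7.0.3, BWA and MACS2 were used with the build BDGP5. Settings, the definition of the score, and which of the 2 ChIP and 2 Input libraries entered the calls or were pooled are not given in the sources used here. Depth is unknown, since nothing in the list belongs to a single library, and no value has a replicate error; weak sites may be missing from it. The locus and the comparisons were chosen with earlier results of these data known.

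Peaks overlapping the window by at least 1 base were counted, and covered bases were clipped to it. Centres were midpoints, in the absence of summits. Windows ran between the first and last peak of 2L, 2R, 3L, 3R, 4 and X; windows without overlap were picked from the highest value down, ties by covered bases or number, without overlap. Width was fitted on score by least squares on logarithms. By the naming rule, every member, the nearest outside peaks and the 5 leading windows by number and by covered bases are named, and neighbouring genes by their order in the RefSeq Release 6 table. Planned motif counts in the vri promoter were not run. Python 3.11.15, numpy 2.4.6 and pandas 2.3.3 were used, and the window counts were tested on simulated data.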

Additional observations from a re-analysis of the deposited data

How the results depend on the processing

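Of 20 values under alternatives, 12 stayed within 1.5 times the reported one and 8 moved further. The count of 9 peaks fell to 3 with peaks within 500 bp merged, to 2 with those within 2 kb merged, and to 5 among scores above the arm median. The covered share of 39.4% was 33.7% with those scores only, 21.8% and 17.6% with the window moved by 13.5 kb to the left and right, and 64.6% over the span of the peaks. By number, the share of windows at or above vri was 1.85% after merging within 500 bp and 0.189% without the dense region of 59 peaks on 2L. The ranks by covered bases and by highest score stayed within 1.5 times, at 0.144% to 0.254% and 0.726% to 0.855% of windows. Against the median of the 100 peaks nearest in score 6 peaks were also wider, but only 5 of them were among the 6 above the line. No paired analysis was possible because no value in the list belongs to a single library, and leaving out each replicate was not run either.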
